A study of Mus musculus with 6 samples.

Results

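The PYHIN or p200 family comprises interferon-inducible proteins of mouse chromosome 1 that are known for sensing DNA and for restraining the growth of myeloid cells. The members considered were AI607873, Ifi203, Ifi204, Ifi205, Mnda, Mndal, Pyhin1 and Aim2, taken wherever the gene name of a table entry, split at commas, held the symbol. All 8 symbols have a row. Ifi203 and Mndal share 1 entry, so the 8 genes are read from 7 of the 26384 entries of the table. The family was chosen by its FPKM values in the treated and vehicle libraries, so its differences between these groups are given as a description, with no test of the family. Of the 7 entries, 6 have a mean of at least 1 FPKM over the libraries, as do 11004 entries in all, and Ifi205 does not.

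RNA-Seq was performed on MLL-AF9 leukemia cells of C57BL/6J mice, sorted by GFP out of the marrow. FF-10501-01-treated mice (3 libraries) had received 160 mg/kg of FF-10501-01, an inhibitor of the guanine nucleotide synthesis enzyme IMPDH, by mouth on 2 consecutive days, and vehicle-treated mice (3 libraries) had received vehicle on the same days. The marrow was taken 48 h after the first dose according to the labels, while the RNA-Seq methods of the study state another interval. MLL-AF9 cells are c-Kit+ mouse bone marrow cells transduced with the MLL-AF9 fusion oncogene together with GFP and passaged serially through mice, so all 6 libraries carry the same oncogene and stem from 1 kind of experimentally made leukemia. Replicate numbers follow the order of the columns and are not tied to a particular mouse.

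PYHIN proteins combine an N-terminal pyrin domain, which binds the pyrin domains of partner proteins, with C-terminal HIN domains, which bind double-stranded DNA, and some members lack either part. Aim2 is the best understood: with DNA in the cytosol it recruits the adaptor ASC (encoded by Pycard) and caspase-1 into an inflammasome that matures IL-1 beta and IL-18. The p204 protein (Ifi204) binds the retinoblastoma protein and the rRNA transcription factor UBF and slows proliferation, and it takes part in macrophage differentiation. The family is larger in mouse than in human, through local gene duplication, and many copies resemble each other closely. Type I interferons act through the transcription factor complex ISGF3 on a promoter element, the interferon-stimulated response element, whose core reads GAAANNGAAA.

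This core was searched in the promoters of the family because the family is known as interferon-inducible. RefSeq start sites (GRCm38.p6, 250 bases before to 50 bases after the start) were found for 7 of the 8 members. Of these, 5 hold GAAANNGAAA on either strand in any of their promoters, against 3.99% of all 27025 genes with a promoter. Counted by single promoters, 3.44% of all 32851 hold it. The stretches around the match on the strand of the gene are shown here, 5′ to 3′, with the match in capitals, since this stretch is common to 5 of the members.
AI607873, chr1:173741821-173741870, minus strand: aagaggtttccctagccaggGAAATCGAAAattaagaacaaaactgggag
Mnda, chr1:173913054-173913103, minus strand: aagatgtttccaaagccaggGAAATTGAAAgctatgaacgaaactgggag
Ifi205, chr1:174031860-174031909, minus strand: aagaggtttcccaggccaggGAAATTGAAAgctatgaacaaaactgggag
Ifi203, chr1:173942498-173942547, minus strand: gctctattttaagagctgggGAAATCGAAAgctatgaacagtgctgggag
Mndal, chr1:173880194-173880243, minus strand: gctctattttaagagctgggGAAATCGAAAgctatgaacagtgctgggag
Pydc3, chr1:173673587-173673636, plus strand: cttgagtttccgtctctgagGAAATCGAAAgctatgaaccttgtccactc

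Pydc3 is a family gene outside the 8 members. The match starts 41 bases before the start site in AI607873, 37 in Mnda, 134 in Ifi205, 35 in Ifi203 (at the second of its start sites), 36 in Mndal and 58 in Pydc3. The stretches of Ifi203 and Mndal are identical over 50 of 50 bases, and those of Mnda and Ifi205 over 46 of 50, so they are copies rather than independent occurrences. The exact letters GAAATCGAAA occur in only 16 of the 32851 promoters, and 7 of these 16 belong to PYHIN genes: AI607873, Ifi203, Mndal, Pydc3, Gm4955, Pydc4 and Ifi214, a relative for which the table has no row under this name. This longer form was looked for after the stretches had been seen. The promoters of Pyhin1 and Aim2 do not hold GAAANNGAAA. In Pyhin1, 2 sites before the start, sought on the strand of the gene only, differ from the core by 1 mismatch. The one closer to the start is a relative of the others with the substitution G1T (counted from 1 at the first base of the core). On either strand and over the whole promoter, 35.4% of all promoters hold a stretch with at most 1 mismatch. The sequence of Pyhin1 is shown with the G1T site in capitals.
Pyhin1, chr1:173630760-173630809, plus strand: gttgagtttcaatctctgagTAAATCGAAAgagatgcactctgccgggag

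In Aim2 the nearest stretches, sought in the same way, had 3 mismatches. None of the 7 members with a promoter holds TTCNNNGAA, the core of the gamma-activated sequence, a promoter element of the interferon gamma response. Of all 27025 genes with a promoter, 9.55% hold it. A match of letters is not a bound site, and no match says only that these letters are absent from this window.

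In GENCODE M21, on GRCm38, the 8 members lie on chromosome 1 between 173350879 and 174031810, within 681 kb, with Aim2 and Pyhin1 on the plus strand and 6 genes on the minus strand. The annotation lists them under newer names for AI607873 (Ifi207), Pyhin1 (Ifi209) and Mnda (Ifi211). All are protein coding, and the values refer to their spliced transcripts. The gene model of Mndal runs from 173849126 to 173942491 and spans both Mnda (173896345 to 173913046) and Ifi203 (173920407 to 173942672), and the table gives Ifi203 and Mndal as 1 merged value. Of the other annotated genes within 500 kb of the members, 29 have an entry, 27 of these are listed at 0 in every library, and 0 reach a mean of 1 FPKM. Transcripts at this level were thus seen only from PYHIN genes among the entries of this stretch.

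Copies of a gene can share reads. As a measure of this, each stretch of 100 bases, the read length of the study, was looked up in the GENCODE transcripts of all other genes. For Aim2, 0 of 3452 such stretches occur in another gene, and for AI607873 0.790%. The share was 2.84% for Ifi203, 6.38% for Mndal, 10.7% for Ifi204, 15.0% for Ifi205 and 16.9% for Pyhin1. Mnda stands apart with 56.9%, of which the largest part is shared with Ifi205 (37.3%). It also shares sequence with Ifi204, in which 9.56% of the stretches occur in Mnda. Ifi204 was at a mean of 25.3 FPKM in treated and 11.7 FPKM in vehicle cells, against 0.682 and 0.163 FPKM for Ifi205. How the reads of Mnda were divided from those of Ifi205 and Ifi204 is therefore uncertain, and by this measure Mnda is the most uncertain member.

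The libraries were of similar depth. Read totals are not given by the table. Values of low entries stand in simple whole-number ratios between libraries for 53.4% to 55.9% of the entries compared (within 0.01 on the natural log scale), which puts the depth relative to vehicle replicate 1 at 0.987 to 1.11 in treated and at 1.00 to 1.25 in the other vehicle libraries. Genes of MLL-AF9 cells were present in all 6 libraries, with Hoxa9 (an entry merged with Mir196b) at 239 to 255 FPKM in treated and 189 to 232 FPKM in vehicle cells and Meis1 at 63.2 to 64.1 FPKM in treated and 65.9 to 67.5 FPKM in vehicle cells. Over the 11004 entries tested with limma on log2(FPKM + 1), at a threshold of 0.05 on the adjusted p, 818 were higher and 821 lower after FF-10501-01. Without treated replicate 3, the library on which these counts rest most, they were 147 and 71.

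In FF-10501-01-treated cells most PYHIN transcripts were more abundant than in vehicle cells, and Aim2 was not. Among the 6 entries tested, Mnda, Ifi204, AI607873 and the merged entry of Ifi203 and Mndal were past limma's threshold in the higher direction, and Pyhin1 and Aim2 were not. This is 4 of 6 entries, where 7.43% of all entries tested were called higher and 7.46% lower, and the count is given without a reading because the family was chosen with this contrast in view. In the 4 entries called higher, and in Ifi205, which was not tested, every treated library lay above every vehicle library. Of all entries tested, 17.6% show this. In 0 of the 7 entries every treated library lay below, as in 21.2% of all entries tested. The median log2 fold change was 0.57 over the 6 member entries and -0.01 over all 11004. In such bulk samples a change in the number of cells of a type and a change in RNA per cell cannot be told apart.

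**Figure D1:**
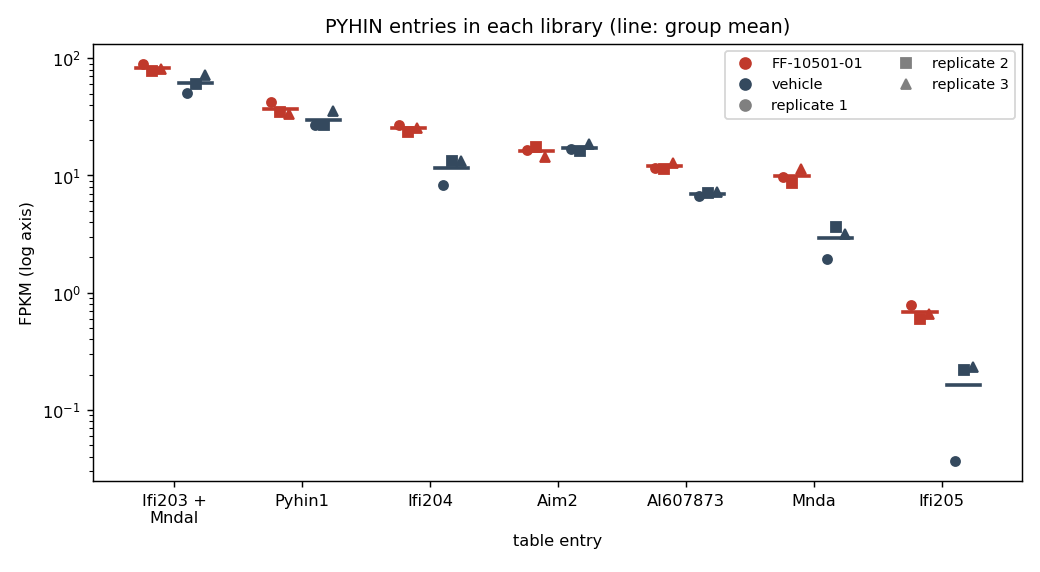
FPKM (log axis) of the 7 PYHIN entries in each library, with FF-10501-01 in red left of vehicle in blue, 1 symbol per replicate and a line at each group mean. The groups separate for Mnda, Ifi204, AI607873, Ifi205 and the entry of Ifi203 and Mndal, and they overlap for Pyhin1 and Aim2, while vehicle replicate 1 is the lowest library in 6 of the 7 entries.

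Mnda, the myeloid nuclear differentiation antigen named after a human nuclear protein of granulocytes and monocytes, differed most among the tested members. It was at 9.78, 8.71 and 11.3 FPKM in treated cells, against 1.95, 3.61 and 3.18 FPKM in vehicle cells. All treated values were more than the highest vehicle value, and the means were 9.91 ± 1.28 and 2.92 ± 0.861 FPKM (SD, n = 3 each), a ratio of 3.40. The log2 fold change was 1.50 with a standard error of 0.16, and 13 of the 11004 entries had a larger one. With a pseudocount of 0.1 it was 1.77, since a pseudocount of 1 understates the change of low entries.

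Ifi204, which encodes p204, was at 27.1, 23.4 and 25.5 FPKM in treated cells and at 8.24, 13.4 and 13.4 FPKM in vehicle cells. The treated libraries lay close together, and vehicle replicate 1 stood below the other vehicle libraries. The means were 25.3 ± 1.84 and 11.7 ± 2.97 FPKM, and the log2 fold change was 1.08 (standard error 0.16). Its level was above that of Aim2 in treated cells and below it in vehicle cells. No promoter sequence was at hand for Ifi204.

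AI607873 (Ifi207), a PYHIN gene whose product is less studied, showed the least spread. It was at 11.7, 11.3 and 12.8 FPKM in treated cells, against 6.68, 7.04 and 7.19 FPKM in vehicle cells. The vehicle values spanned little (SD 0.261 FPKM), and the gap between the groups was far wider than the range within either. The log2 fold change was 0.70 with a standard error of 0.066, the smallest among the tested members.

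The merged entry of Ifi203 and Mndal, a pair of neighbouring HIN-domain genes, was the most abundant of the family. It stood at 89.5, 77.4 and 80.4 FPKM in treated cells and at 50.4, 60.6 and 72.0 FPKM in vehicle cells. The groups did not overlap, but vehicle replicate 3 came close to treated replicate 2. The log2 fold change was 0.44 (standard error 0.12). Which of the pair contributes cannot be read from 1 value. The entry was no longer past the threshold when treated replicate 1, 2 or 3 or vehicle replicate 1 or 2 was left out, with log2 fold changes of 0.31 to 0.57 over the 6 settings that leave out a library. It was not past the threshold either without the filter, without the trend or with the replicate block.

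Ifi205, whose product is also called D3, was near the limit of detection. It was at 0.791, 0.591 and 0.664 FPKM in treated cells and at 0.0364, 0.218 and 0.233 FPKM in vehicle cells. After scaling by relative depth these values are 22, 18 and 18 times the lowest value in treated cells, against 1, 6 and 8 times in vehicle cells, each within 0.00671 of a whole number. The lowest value can therefore rest on as little as 1 sequenced fragment. All treated values lay above all vehicle values, with a ratio of the means of 4.20. The log2 fold change on log2(FPKM + 1), from the fit without a filter, was 0.54 (standard error 0.080) and is compressed by the pseudocount. No larger fold was seen in the family, but it rests on the fewest reads.

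Pyhin1 (Ifi209), the mouse gene listed under the name of the human protein IFIX, was the second most abundant entry. It was at 42.6, 34.9 and 33.7 FPKM in treated cells and at 26.8, 26.8 and 35.6 FPKM in vehicle cells. Vehicle replicate 3 lay above treated replicates 2 and 3, so the groups overlapped. The log2 fold change was 0.31 (standard error 0.12) and did not pass. It ranged from 0.21 to 0.45 when single libraries were left out.

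Aim2, the inflammasome sensor, was at 16.4, 17.5 and 14.5 FPKM in treated cells and at 16.9, 16.3 and 18.7 FPKM in vehicle cells. The groups overlapped, with treated replicate 2 above vehicle replicates 1 and 2. The means were 16.1 ± 1.53 and 17.3 ± 1.24 FPKM, and the log2 fold change was -0.10 (standard error 0.079). Aim2 was the member with the lowest fold change, it is the gene with no stretch of 100 bases shared with a relative, and it lies at the edge of the cluster.

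**Figure D2:**
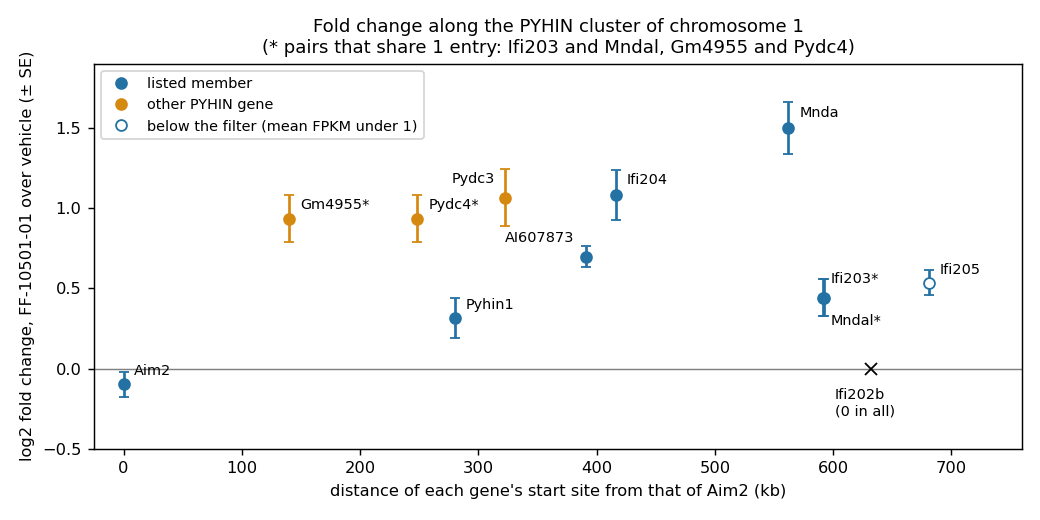
Log2 fold change (FF-10501-01 over vehicle, bars are the standard error from limma, 3 libraries per group) of PYHIN genes against position. Positions are distances in kb between the start of each GENCODE gene model and that of Aim2. These differ from the RefSeq start sites used for the promoters. The Aim2 model starts at 173350879, and its promoter window is 173420354 to 173420653. The Mndal model starts at 173942491, and its first promoter window is 173880138 to 173880437. Aim2 at -0.10 and Pyhin1 at 0.31 lie below the other measured genes, Mnda is highest at 1.50, and the cross marks the place of Ifi202b, which is listed at 0 in every library and has no fold change.

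The family also changed in make-up. The 7 entries summed to 198, 174 and 179 FPKM in treated cells and to 111, 128 and 150 FPKM in vehicle cells, a ratio of the means of 1.41. The entry of Ifi203 and Mndal made up 44.5% to 45.3% of this sum in treated and 45.4% to 47.9% in vehicle cells. Ifi204 made up 13.5% to 14.3% in treated cells, against 7.43% to 10.5% in vehicle cells, and Mnda 4.95% to 6.29%, against 1.76% to 2.82%. Aim2 made up 8.10% to 10.1% in treated cells and 12.4% to 15.2% in vehicle cells. These shares move together by construction, since they add up to the whole.

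**Figure D3:**
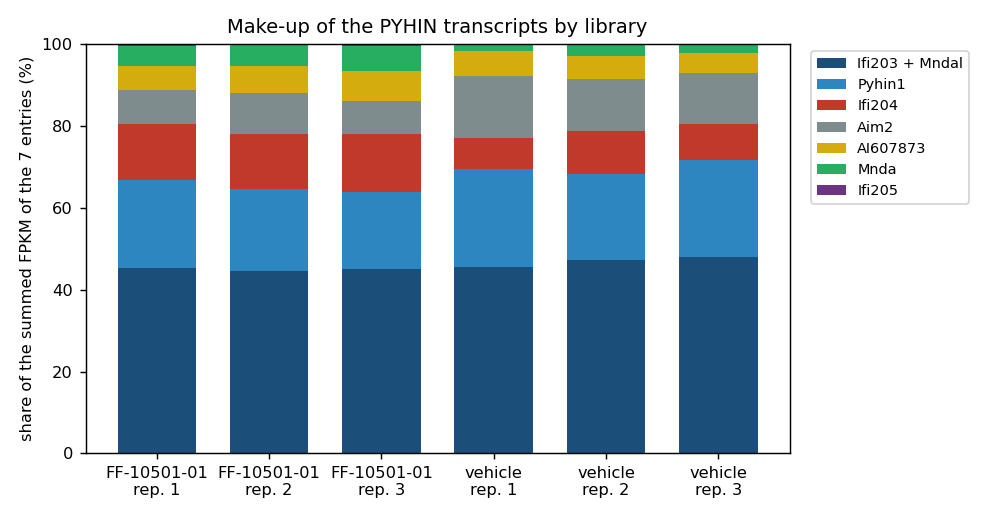
Share of each entry in the summed FPKM of the 7 PYHIN entries, in percent, 1 bar per library, with the 3 FF-10501-01 libraries left of the 3 vehicle libraries. Ifi203 and Mndal hold 44.5% to 47.9% in every library, while the bands of Ifi204 and Mnda are wider and that of Aim2 narrower in the treated libraries.

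The order of levels, which FPKM allows between genes because it is scaled to transcript length, was nearly the same in both groups. In treated cells it ran from Ifi203 with Mndal through Pyhin1, Ifi204, Aim2, AI607873 and Mnda to Ifi205. In vehicle cells only Ifi204 and Aim2 changed places. No neighbours in either order had overlapping ranges, but AI607873 and Mnda all but touched in treated cells, where the lowest value of AI607873 was 11.30 FPKM (treated replicate 2) and the highest of Mnda was 11.25 FPKM (treated replicate 3).

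The other PYHIN genes of the table lay in the same direction. They are not members. Up to 13.1% of their 100-base stretches, in Gm4955, occur in another gene, the largest part of these in Pydc3 (5.51%). They are therefore not independent measurements, and the part shared with members alone was not separated. All 3 entries with a mean of at least 1 FPKM were higher in treated cells by limma, with 0 lower, also by the unadjusted p. Pydc3 (Ifi208) was at 12.3, 11.1 and 12.2 FPKM in treated cells and at 3.42, 6.56 and 5.92 FPKM in vehicle cells (limma: log2 fold change 1.07, SE 0.18, adjusted p = 0.0133). The merged entry of Gm4955 (Ifi206) and Pydc4 (Ifi213) was at 35.7, 30.8 and 32.6 FPKM in treated cells and at 12.7, 18.6 and 19.9 FPKM in vehicle cells (limma: log2 fold change 0.94, SE 0.14, adjusted p = 0.0118). The third, BC094916, which has no match in the annotations used, was at 2.02, 2.39 and 2.17 FPKM in treated cells and at 0.744, 1.16 and 1.23 FPKM in vehicle cells (limma: log2 fold change 0.65, SE 0.12, adjusted p = 0.0168). Without treated replicate 3 the adjusted p was 0.0579 for Pydc3 and 0.0636 for BC094916, and without treated replicate 2 it was 0.0504 for BC094916. Ifi202b, which encodes p202, a family protein without a pyrin domain, was listed at 0 in all 6 libraries.

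**Figure D4:**
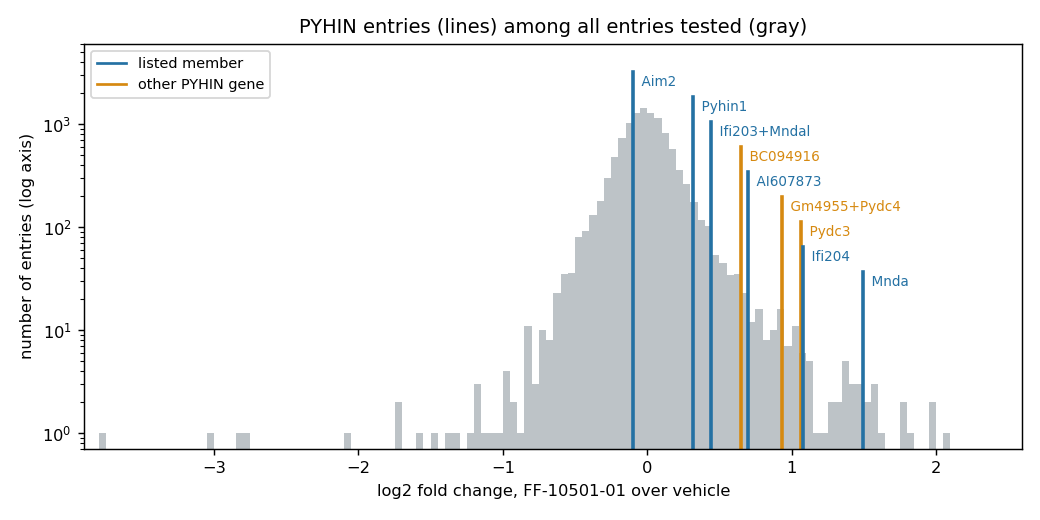
Distribution of the log2 fold change (FF-10501-01 over vehicle) over all 11004 entries tested, as counts on a log axis, with lines at the 6 tested member entries (blue) and the 3 other PYHIN entries (orange). Aim2 at -0.10 lies in the bulk of the entries, and the remaining lines run from Pyhin1 at 0.31 to Mnda at 1.50.

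Genes that work with the family were compared next. Of 15 tested genes of DNA sensing and of the inflammasome, 5 rose and 0 fell by limma (7 and 2 by the unadjusted p), with a median log2 fold change of 0.17. Zbp1, a sensor of left-handed nucleic acids, was at 105, 91.9 and 117 FPKM in treated and 32.6, 63.6 and 52.4 FPKM in vehicle cells (limma: log2 fold change 1.11, adjusted p = 0.0168). Irf3, the transcription factor downstream of STING, rose by 0.28 on the log2 scale (adjusted p = 0.0250, limma). The merged entry of Atrip and the DNA exonuclease gene Trex1 rose by 0.22 (adjusted p = 0.0394, limma), and Tmem173, which encodes STING, rose by 0.22 (adjusted p = 0.0422, limma). Il1b, whose product the inflammasome matures, was at 5.76, 9.54 and 13.1 FPKM in treated and 2.08, 3.83 and 2.50 FPKM in vehicle cells, a log2 fold change of 1.42 (limma, adjusted p = 0.0158). The Aim2 adaptor Pycard was at 34.0, 33.9 and 32.6 FPKM in treated cells and at 36.1, 37.2 and 38.6 FPKM in vehicle cells, which did not pass (limma: log2 fold change -0.15, adjusted p = 0.0574). Casp1 and Gsdmd, the caspase and the pore former of the inflammasome, had log2 fold changes of 0.13 and 0.20 and did not pass. Of this list, 2 genes were past the threshold without treated replicate 2, 0 without treated replicate 3, 1 without vehicle replicate 1 and 2 without vehicle replicate 3.

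Of 9 tested partners of p202 and p204 in the cell cycle and the nucleolus, 0 passed limma's test, and 0 did so at an unadjusted p under 0.05 (median log2 fold change -0.01). Ubtf, which encodes UBF, was at 41.7 ± 1.26 FPKM in treated and 44.7 ± 1.13 FPKM in vehicle cells (SD, n = 3 each). Rb1, the retinoblastoma gene, had a log2 fold change of 0.11, and Trp53, the most abundant gene of this list, one of -0.08.

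Of 15 tested genes of interferon signaling, 5 rose and 1 fell by limma (median log2 fold change 0.14). The family is known as interferon-inducible, and the part of interferon in its values was not tested. Irf7, a transcription factor that amplifies the type I response, was at 126, 113 and 115 FPKM in treated and 52.3, 76.1 and 75.9 FPKM in vehicle cells (limma: log2 fold change 0.80, adjusted p = 0.0131). Stat2, a subunit of ISGF3, rose to 29.5 ± 2.55 FPKM in treated cells, against 19.6 ± 1.33 FPKM in vehicle cells, and Ifnar2, a chain of the type I receptor, was at 97.8 ± 2.46 FPKM in treated and 89.0 ± 6.03 FPKM in vehicle cells and did not pass. Ifngr1, the ligand-binding chain of the interferon gamma receptor, fell to 227 ± 9.29 FPKM in treated cells, against 266 ± 11.7 FPKM in vehicle cells (adjusted p = 0.0212, limma). The number that rose was 3 without treated replicate 1 or 2 and 1 without treated replicate 3. Transcripts of the ligands themselves were at or near 0: Ifnb1 was at most 0.0867 FPKM and Ifng at most 0.153 FPKM in any library.

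The libraries ranked in part alike for the PYHIN members and for other genes of the interferon response. Vehicle replicate 1 was the lowest of all 6 libraries in 6 of 7 member entries, in 3 of 3 other PYHIN entries, in 13 of 13 tested type I reference genes, in 10 of 12 interferon gamma reference genes, in 10 of 15 genes of DNA sensing and in 22.3% of all entries tested. The highest vehicle library was replicate 3 in 5 member entries and replicate 2 in 2, against 6 and 7 type I genes. Over all entries tested these shares were 24.4% and 37.6%. Treated replicate 1 was the highest in 4 of 7 member entries, in 11 of 13 type I genes and in 9.78% of all entries tested. In the 12 interferon gamma genes it was the highest in 1 and treated replicate 3 in 10. Treated replicate 3 was the highest in 21.2% of all entries tested. Ifit1, a type I gene that blocks translation of viral RNA, was at 21.6, 18.0 and 19.3 FPKM in treated and at 7.56, 11.6 and 11.6 FPKM in vehicle cells, an order of libraries like that of Ifi204. Gbp2, which responds to interferon gamma, was at 54.3, 38.3 and 82.1 FPKM in treated and at 6.97, 31.9 and 10.7 FPKM in vehicle cells, where vehicle replicate 2 stood highest. These rankings are a description of 6 libraries. Among the type I genes Oas2, Ifi27l2a and Bst2 rose by 0.60, 0.94 and 0.47 on the log2 scale, and Mx2 had a log2 fold change of 0.44 and did not pass. Among the interferon gamma genes Irgm2, Irgm1, Gbp7 and Cd74 (an entry merged with Mir5107) rose by 1.05, 0.70, 0.76 and 1.54, and Gbp3 had a log2 fold change of 0.22 and did not pass. The 12 type I genes past the threshold (of 13) and the 9 interferon gamma genes (of 12) had list medians of 0.60 and 1.01 on the log2 scale. Without treated replicate 3 only 2 genes of each list passed. Without treated replicate 1 the counts were 7 and 5, and without vehicle replicate 1 or 3 only 2 interferon gamma genes passed.

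By Pearson's r over the 6 libraries between log2(FPKM + 1) and the summed FPKM of the family on the same scale, the entries most like the family among 10998 others were Slfn5 (r = 0.993), a member of the interferon-inducible schlafen family, Tor3a (0.993), an interferon-responsive torsin ATPase, Rbx1 (0.992), a RING subunit of cullin ubiquitin ligases, Gm20559 (0.990) and Traf2 (0.989), an adaptor of TNF receptors. With 6 points that also carry the difference between the groups, 115 entries reached at least 0.95. Slfn5 was at 36.4, 30.4 and 30.1 FPKM in treated and at 16.5, 21.3 and 26.0 FPKM in vehicle cells (log2 fold change 0.60), so that, as for the family, vehicle replicate 1 was lowest and treated replicate 1 highest. In Rbx1 and Traf2 the same libraries were lowest and highest, with far smaller steps (log2 fold changes 0.09 and 0.07).

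Markers of the state of myeloid cells moved with the treatment as well. Of 9 genes of MLL-AF9 targets and myeloid progenitors, 2 rose and 2 fell by limma. Hoxa9, with Mir196b, rose by 0.27 on the log2 scale, close to the threshold (adjusted p = 0.0465, limma). The study, which tested with Cuffdiff, reports that FF-10501-01 left Hoxa9 and Meis1 expression unaffected. Itgam, which encodes the integrin CD11b of maturing myeloid cells, rose by 0.33 (adjusted p = 0.00847, limma). Cd34 and Kit, surface markers of progenitors, fell by 0.54 and 0.27 on that scale, to 90.7 ± 12.3 FPKM for Cd34 in treated cells, against 132 ± 12.2 FPKM in vehicle cells (SD, n = 3 each). Kit was close to the threshold too (adjusted p = 0.0476, limma). Meis1, Hoxa10, Mpo, Elane and Csf1r did not pass.

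Of 9 late neutrophil markers, 5 of the 6 tested rose, and their summed level was 613, 850 and 1466 FPKM in treated cells and 257 to 287 FPKM in vehicle cells. Camp, which encodes a granule peptide, was at 55.5, 92.5 and 186 FPKM in treated and at 20.1, 23.5 and 25.8 FPKM in vehicle cells, S100a8, S100a9, Ngp and Cxcr2 rose too, and Mmp8 did not pass. Ly6g was at 0.204, 0 and 0.836 FPKM in treated cells and at 0 in the 3 vehicle libraries. The neutrophil sum was highest in treated replicate 3, in which Mnda and AI607873 were also highest, and lowest among treated libraries in replicate 1, in which Ifi204, Pyhin1, Ifi205 and the entry of Ifi203 and Mndal were highest. Of 8 tissue macrophage markers with an entry, Vcam1 and Siglec1 rose and Cd163 did not pass (0.429 ± 0.382 FPKM in treated and 1.98 ± 1.06 FPKM in vehicle cells, log2 fold change -1.02), and the sum was 63.2 to 84.8 FPKM in treated and 45.7 to 55.9 FPKM in vehicle cells, most of it Vcam1. The study reports that treatment raised Vcam1 on the leukemia cells themselves. This sum can therefore not be read as a level of macrophages. C1qa, C1qb, C1qc, Cd5l and Mrc1 were not tested and were at most 1.32 FPKM in any library. Of these, C1qa, C1qc and Cd5l lay higher in every treated library, and C1qb and Mrc1 overlapped between the groups.

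Both tested platelet markers, Gp9 and Gp1bb (an entry merged with Sept5), rose. The list summed to 15.3 to 24.0 FPKM in treated and 9.42 to 10.4 FPKM in vehicle cells, most of it the Gp1bb entry. Itga2b, also on this list, was not tested. It was at most 0.661 FPKM in treated cells and at least 0.914 FPKM in vehicle cells. Pf4 and Ppbp were at most 0.275 FPKM. B cell markers summed to 5.62 to 6.49 FPKM in treated and 7.90 to 8.82 FPKM in vehicle cells, nearly all from Cd79b, which fell, and Pax5 was at 0. Erythroid markers summed to 0.273 to 3.65 FPKM in treated and 2.24 to 8.45 FPKM in vehicle cells. Markers of T cells, NK cells and dendritic cells summed to at most 2.32, 0.612 and 1.07 FPKM in any library, endothelial and stromal markers to at most 1.33 FPKM, and Siglech and Klk1 were at 0 throughout. The cells had been sorted by GFP, a gate that host cells without the vector would not pass. The part of myeloid state, and of any other cells, in the PYHIN values was not tested.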

How the data were processed

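The values deposited by the authors are FPKM per gene. Their notes and methods name cutadapt 1.8.1 for trimming, TopHat2 2.1.1 for alignment (GRCm38) and Cufflinks 2.2.1 for quantification. Cufflinks divides reads that fit several places, so values of near-identical copies are uncertain. The study's test, Cuffdiff, needs reads and was not run. All 6 columns of the table were used. The 11004 entries that averaged 1 FPKM or more were put on the log2(FPKM + 1) scale and compared with limma 3.58.1, under R 4.3.3 (treatment as the only term, eBayes with trend, two-sided, Benjamini-Hochberg over all entries, threshold 0.05), and the procedure was tested on simulated data. Members, lists and tests were chosen with earlier results of these data known. Within each list the named genes are up to 4 with the smallest p among those that passed and the most abundant that did not, and further ones were picked for their role after their values were seen. Some listed genes are not reported here. Old symbols were matched to RefSeq synonyms and positions taken from GENCODE M21 (GRCm38). Promoters are from RefSeq. Figures used Python 3.11.15 and matplotlib 3.10.9. Other settings tried were leaving out the filter or raising it to 5 FPKM, the pseudocount 0.1, median-of-ratios, TPM and quantile scaling, eBayes without trend, a replicate block and leaving out each library.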

Additional observations from a re-analysis of the deposited data

How the results depend on the processing

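Mnda, Ifi204 and AI607873 were past the threshold in all 14 alternatives, Aim2 in 0, Pyhin1 in 1 (without vehicle replicate 3) and the entry of Ifi203 and Mndal in 6. No member's log2 fold change turned its direction in any of them, and 83 of 84 such values moved by less than the spread between replicates. These values include settings that cannot change a log2 fold change, namely the filters, eBayes without trend and the replicate block. The number of member entries called was 3 to 5. Without the filter, 337 entries were higher and 244 lower, and the lists counted 0 genes of DNA sensing, 3 of interferon signaling, 4 of type I interferon and 1 of interferon gamma as higher, where more entries share the adjustment. With eBayes without trend, 512 entries were lower and 3 genes of DNA sensing higher. Leaving out single libraries gave 147 to 884 entries higher and 71 to 789 lower, and 1 to 3 other PYHIN entries, 0 to 5 genes of DNA sensing, 1 to 7 of interferon signaling, 2 to 13 of type I interferon and 2 to 10 of interferon gamma higher. The summed FPKM of the members had a log2 ratio of 0.50, and 0.40 to 0.62 without single libraries. The cause of these changes was not tested. Deviations of same-numbered libraries from their group means had r = -0.01, -0.07 and -0.04, and those of differently numbered libraries had -0.11 to 0.13. With 3 libraries per group such values cannot settle whether the numbers pair the libraries. With the replicate block 650 entries were higher and 602 lower, 3 member entries and 5 interferon gamma genes were called. Rescaled to TPM, 1008 entries were higher and 667 lower. Read totals are not given, so no counting interval was computed.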
